A study of Homo sapiens and Canis lupus familiaris with 27 samples.

Results

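Insulin-like growth factors (IGFs) reach their receptors through a family of binding proteins. The genes described here are the IGF binding proteins IGFBP1 to IGFBP7 and the receptors IGF1R, IGF2R and INSR, 10 genes in all, found by their names in the first column of the deposited count tables. All 10 were listed among the 23708 genes of each human table. In the canine table, 8 of the 10 were listed among 16028 genes, and rows named IGF1R and IGF2R were not found. RNA of 3 prostate carcinoma cell lines was sequenced: PC-3 and LNCaP are human lines and CT1258 is a canine line. Cells were harvested 12 h or 24 h after addition of 15 μM PDA-66, and control cells received 0.15% DMSO, the solvent of the compound. PC-3 was grown in DMEM/Ham's F-12, LNCaP in RPMI 1640 and CT1258 in medium 199, each with fetal bovine serum, which itself brings growth factors and binding proteins into the culture. Counts of 26 samples were used. Each group held 3 samples, which the study's methods describe as independent biological replicates, except the PC-3 DMSO group with 2, since the study set the third PC-3 control aside and it was not used here. Each line is a single established culture, so a difference between lines is a difference between these cultures. The DMSO controls are those of 24 h, so for the 12 h groups an effect of PDA-66 and an effect of time in culture cannot be told apart.

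The soluble ligands IGF1 and IGF2 signal through the receptor tyrosine kinase IGF1R, and insulin signals through INSR, whose subunits can also pair with those of IGF1R. IGF2R, the cation-independent mannose 6-phosphate receptor, has no kinase. It takes up IGF2 for degradation and carries newly made lysosomal enzymes. The binding proteins IGFBP1 to IGFBP6 hold IGFs with high affinity, lengthen their life in the circulation and can block or favour their access to IGF1R, whereas IGFBP7 binds IGFs weakly. Proteases cut the binding proteins and so free the ligand. In the prostate this system is known as a growth and survival pathway of epithelial and carcinoma cells, and IGFBP3 is also known as a gene that rises with growth arrest in many cell types.

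Total counts per sample ranged from 14650839 to 18091755 for PC-3, from 11923105 to 14741883 for LNCaP and from 7203534 to 20976950 for CT1258, where the 3 controls had the deepest libraries (19909616 and above) and no PDA-66 sample exceeded 8325867. As the common biological coefficient of variation, replicates of LNCaP spread most (0.24), and those of PC-3 (0.0971) and CT1258 (0.1) less. LNCaP PDA-66 12 h replicate 2 stood apart, with a mean correlation of log CPM to its own group of 0.9289, against 0.9586 to 0.9972 for the other LNCaP samples. Marker genes went with the labels of the human lines: LNCaP expressed all 6 luminal prostate markers examined (FOLH1 up to 1410 CPM) and no leukocyte marker above 1 CPM, and PC-3 expressed all 4 epithelial markers (KRT18 up to 361 CPM) but 5 of 6 luminal markers only below 1 CPM. In PC-3 the highest leukocyte marker was LYZ at up to 19.4 CPM and the highest endothelial markers were PECAM1 in PC-3 (18.5 CPM) and VWF in LNCaP (40.2 CPM), while the highest fibroblast markers were COL1A2 in PC-3 (54.9 CPM) and CT1258 (89.3 CPM) and COL1A1 in LNCaP (125 CPM). In CT1258 only 1 of 4 epithelial markers was listed, EPCAM, which never exceeded 0.262 CPM, and 3 of the 5 listed luminal markers stayed below 1 CPM, with KLK2 the highest at 10.8 CPM, so the epithelial origin of that line was not visible in these genes. Several markers moved with PDA-66. In PC-3 the epithelial markers CDH1 (-2.44 and -2.18 on the log2 scale at 12 h and 24 h) and KRT18 (-1.06 and -0.67) fell at both times and EPCAM at 24 h, so that 2 and 3 of 4 passed 0.001 in edgeR. COL1A2 (-3.33 and -1.97) and LYZ (-3.40 and -3.05) fell at both times and PECAM1 (-1.72) at 12 h, while the T cell marker CD3E stayed at or near 0. Other markers rose. At 0.05 in edgeR, 1 further leukocyte marker was higher in PC-3 at 24 h and 1 further fibroblast marker at 12 h. The 1 luminal marker tested in PC-3 rose by 1.45, past 0.001, at 12 h and by 1.07, past 0.05, at 24 h. In CT1258 1 luminal marker was higher at 0.05 at 24 h. COL1A2 fell in CT1258 as well (-1.85 and -2.81), where KLK2 was at 0 in all 6 PDA-66 samples, and VWF was lower in LNCaP at 0.05 (-1.87 and -2.14). Their part in the results below was not tested. Values below are counts-per-million (CPM) of the library size scaled by the trimmed mean of M-values (TMM). They are amounts relative to all counted RNA, and less RNA per cell cannot be told apart from fewer cells that make it.

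Of the 10 genes, IGFBP3, IGFBP4, IGFBP6 and INSR carried most of the differences described below, and their promoters are shown for that reason. RefSeq promoter sequences of the build GRCh38.p14 were matched for 8 of the 10 human genes, all but IGFBP1 and IGFBP7. Each sequence is the 250 bases before the transcription start, 5′ to 3′ on the strand of the gene, and capitals mark the GC box GGGCGG and the TATA box TATAAA on either strand. IGFBP3 lies at chr7:45921273-45921522 (minus strand), IGFBP4 at chr17:40443200-40443449 (plus), IGFBP6 at chr12:53097417-53097666 (plus) and INSR at chr19:7294415-7294664 (minus).
IGFBP3: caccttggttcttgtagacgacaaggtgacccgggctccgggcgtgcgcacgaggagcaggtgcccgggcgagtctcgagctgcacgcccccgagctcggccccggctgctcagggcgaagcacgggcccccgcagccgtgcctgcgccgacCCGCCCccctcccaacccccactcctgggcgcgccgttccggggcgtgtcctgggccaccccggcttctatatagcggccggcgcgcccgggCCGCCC
IGFBP4: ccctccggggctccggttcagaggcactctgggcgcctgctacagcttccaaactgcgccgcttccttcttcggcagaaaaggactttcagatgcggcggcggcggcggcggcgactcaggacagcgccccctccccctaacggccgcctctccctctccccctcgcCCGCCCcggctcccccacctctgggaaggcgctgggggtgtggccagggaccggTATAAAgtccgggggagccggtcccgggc
IGFBP6: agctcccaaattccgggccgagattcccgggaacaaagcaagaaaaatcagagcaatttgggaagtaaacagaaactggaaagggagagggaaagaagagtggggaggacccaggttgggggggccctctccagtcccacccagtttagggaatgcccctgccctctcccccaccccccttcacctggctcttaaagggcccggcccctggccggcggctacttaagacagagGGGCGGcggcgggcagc
INSR: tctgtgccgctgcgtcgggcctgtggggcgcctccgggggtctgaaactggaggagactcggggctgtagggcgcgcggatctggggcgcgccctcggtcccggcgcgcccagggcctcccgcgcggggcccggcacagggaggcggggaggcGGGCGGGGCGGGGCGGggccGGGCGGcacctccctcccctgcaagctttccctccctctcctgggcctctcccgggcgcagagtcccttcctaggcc

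All 4 windows were rich in G and C, from 61.2% in IGFBP6 to 78.4% in INSR, with 71.6% in IGFBP4 and 76% in IGFBP3. The IGFBP4 window held TATAAA at 29 to 24 bases before the start, a motif found in 10.7% of 35116 promoter windows of the same length, and the other 3 windows did not hold these letters. Only exact letters were searched, so variants such as the TATATA in the IGFBP3 window were not marked. INSR held 4 copies of GGGCGG, of which the 3 farthest from the start overlap by 1 base each, IGFBP3 held 2 and IGFBP4 and IGFBP6 held 1 each. GGGCGG was present in 42.6% of all windows. IGFBP3 also held 3 copies of GCGTG, the core of the xenobiotic response element (32.2% of all windows), and IGFBP6 held 1 copy of GTAAACA, a forkhead core (2.98%). The matches describe the letters in these human windows. Binding was not measured.

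In DMSO the lines differed in which binding proteins they made. Per kilobase of the canonical transcript, so that genes can be compared, PC-3 had the highest level for IGFBP6 at 75.2 CPM per kb, followed by IGFBP4 at 22.2 and IGF2R at 19.8, whose samples overlapped (18.6 to 25.7 and 14.5 to 25.0). INSR followed at 9.28 and IGFBP3 at 3.01, both apart from their neighbours in that order. IGFBP1 at 0.644 and IGF1R at 0.586 CPM per kb again overlapped, and IGFBP5, IGFBP7 and IGFBP2 were at or below 0.0378.

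LNCaP showed another order. IGFBP2, a binding protein that prefers IGF2, led with 82.8 CPM per kb, and IGF2R came next at 36.1. IGF1R at 5.91 (5.48 to 6.69) and INSR at 4.68 (3.85 to 5.68) overlapped, IGFBP3 was at 2.79, and IGFBP5 was at 0.172. IGFBP1, IGFBP4, IGFBP6 and IGFBP7 each had at most 2 counts in any LNCaP sample.

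**Figure D1:**
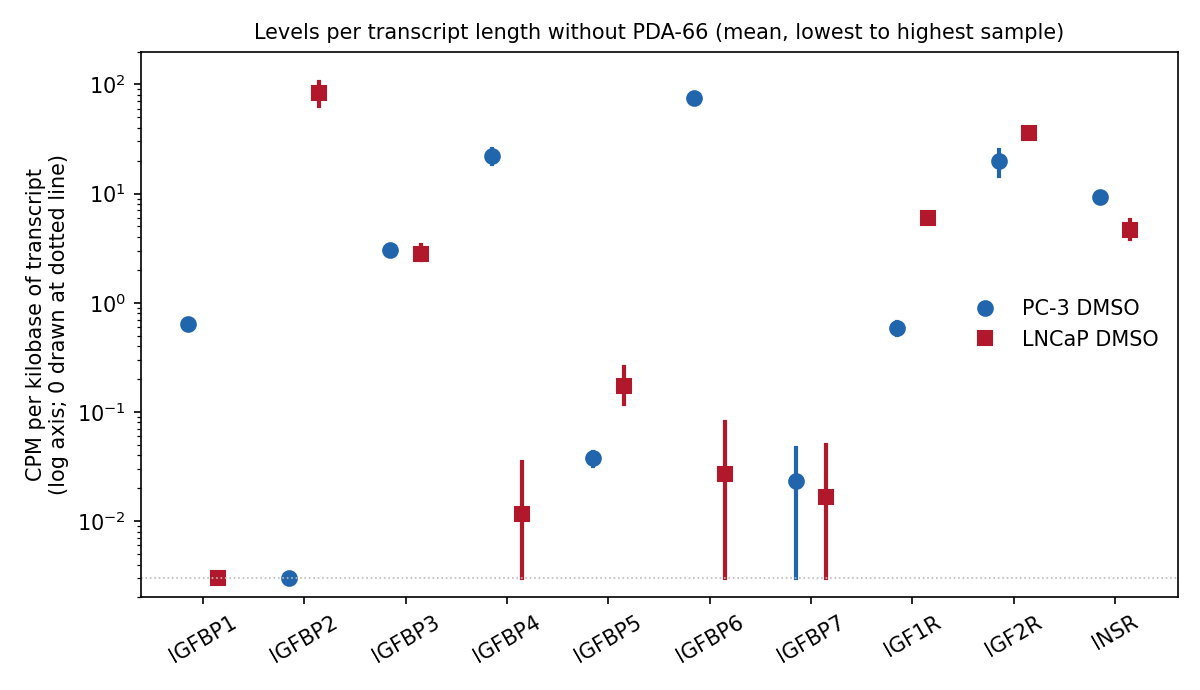
Level of each gene in DMSO-exposed PC-3 (2 samples) and LNCaP (3 samples), as CPM per kilobase of the canonical transcript on a log axis; points are means and lines run from the lowest to the highest sample. IGFBP6 (75.2) and IGFBP4 (22.2) stand highest in PC-3, and IGFBP2 (82.8) and IGF2R (36.1) in LNCaP.

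Between the DMSO groups of PC-3 and LNCaP, 8 of the 9 genes tested passed an adjusted p of 0.001 in the edgeR quasi-likelihood test, against 40.8% of the 15018 genes tested. Line and culture medium cannot be told apart in this comparison. The IGFBP2 mRNA of LNCaP summed to 4660 counts over its 3 controls and that of PC-3 to 0, so that LNCaP was at least 1240-fold higher against a floor of 3 counts over the group. IGFBP1, a liver binding protein under the control of insulin, went the other way, with 29 counts in PC-3 and 0 in LNCaP, at least 12.1-fold higher in PC-3 against the same floor. The lower 95% counting limits of these ratios were 1010 for IGFBP2 and 9.21 for IGFBP1. IGFBP4 had 1453 counts in PC-3 and 1 in LNCaP, a ratio of 1810 after scaling to the total counts of each group (95% counting interval 325 to 71700). For IGFBP6 it was 2115 against 1 count, a ratio of 2640 (474 to 104000). The folds, ratios and limits of these 4 genes were scaled by total counts, without TMM, and the intervals cover counting error alone.

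All 3 receptors differed between the DMSO groups. IGF1R was lower in PC-3 (log2 difference -3.31, SE 0.215, edgeR adjusted p = 6.33e-10). INSR was higher in PC-3 by 1.01 (SE 0.166, edgeR adjusted p = 4.95e-05), with samples of 81.5 and 94.1 CPM against 36.4 to 53.7, a call lost without PC-3 control 2 (0.0014). IGF2R was lower in PC-3 (log2 difference -0.84, SE 0.179, edgeR adjusted p = 0.000586), but its 204 and 351 CPM in the PC-3 controls lie far apart, and the difference was -0.50 (edgeR adjusted p = 0.0132) without control 3 and -1.29 without control 2, and the call was lost in 8 of 21 alternatives. IGFBP3 had nearly the same level in both lines, with a log2 difference of 0.13 (95% interval -0.19 to 0.46, edgeR adjusted p = 0.501). IGFBP5 was called at a log2 difference of -2.14 (edgeR adjusted p = 0.000846), with 1 to 4 counts per PC-3 sample, and its call was lost in 15 of 21 alternative analyses. IGFBP5 and IGFBP7 share 7.81% and 24.8% of their exon bases with genes on the opposite strand. Whether counting used the strand is not stated, so both are uncertain.

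**Figure D2:**
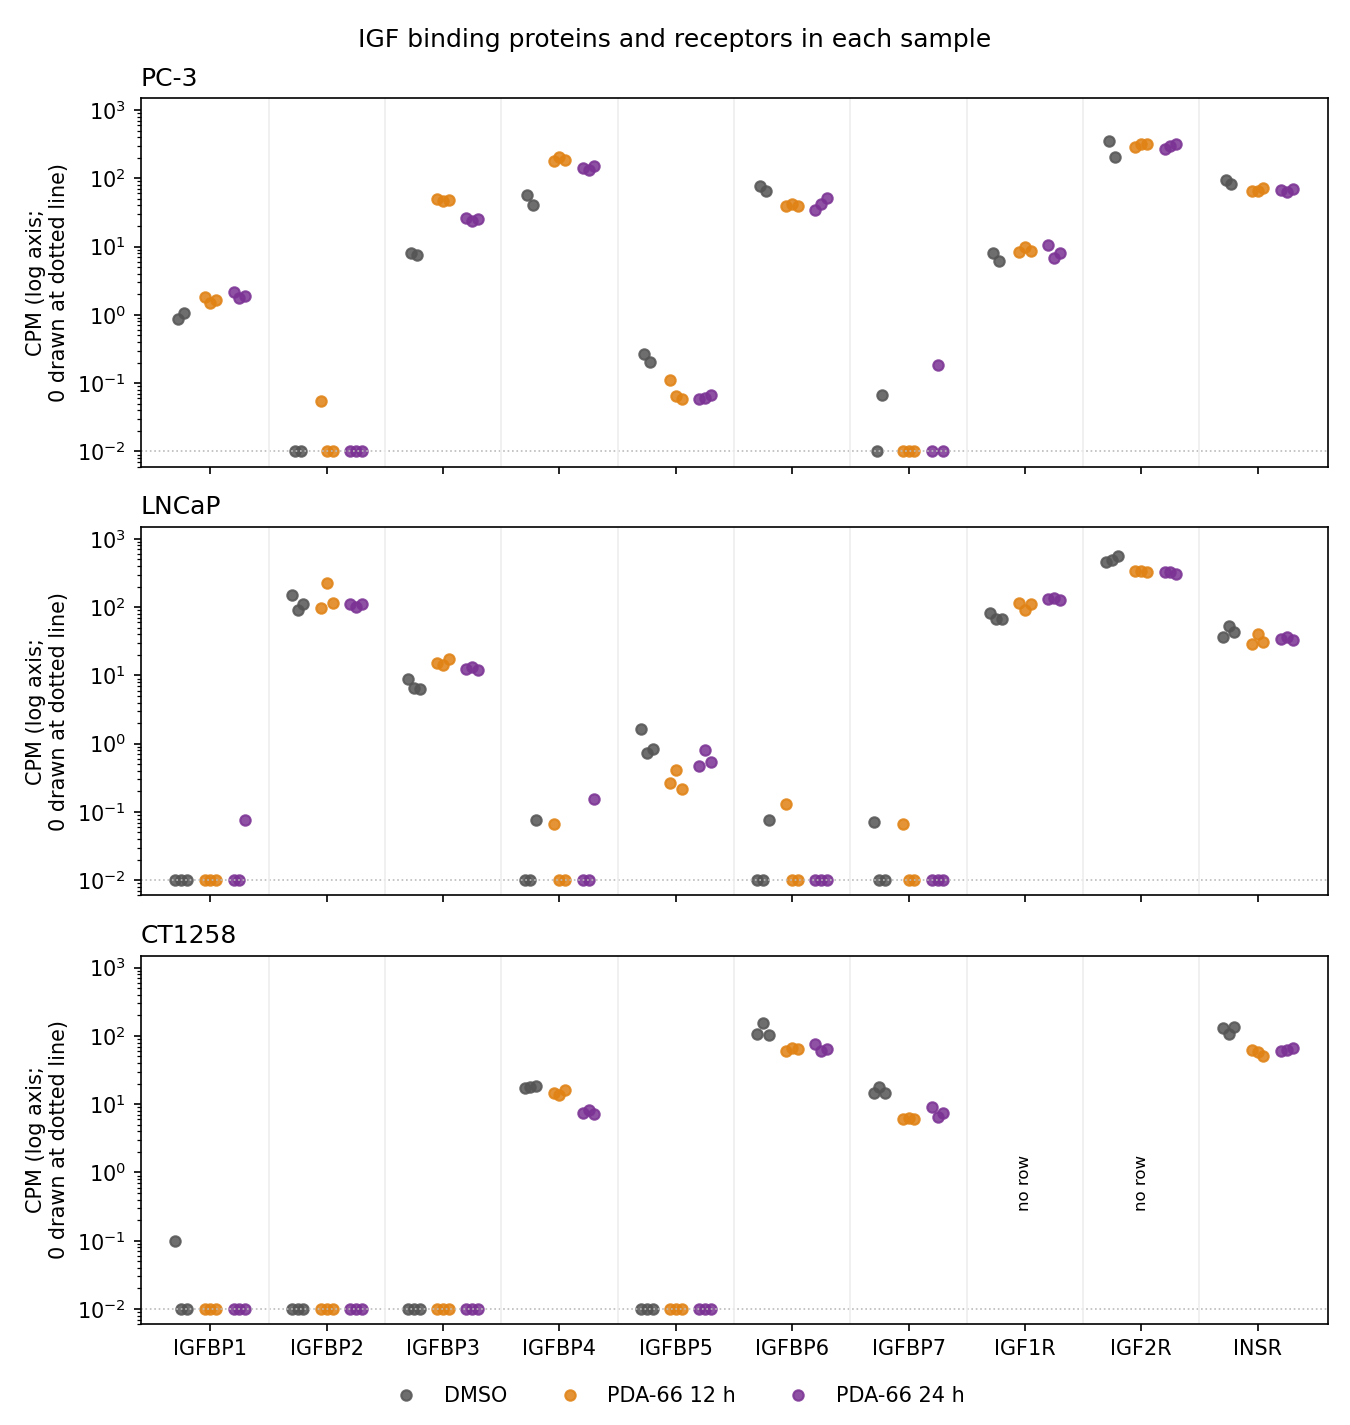
CPM of every gene in every sample on a log axis, 1 panel per cell line, with each sample as a point coloured by its group (DMSO, 12 h or 24 h of PDA-66); a value of 0 is drawn on the dotted line and genes without a row are marked. IGFBP3 and IGFBP4 of PC-3 shift upward with PDA-66, and all 4 expressed genes of CT1258 shift downward.

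In PC-3 exposed to PDA-66, mRNAs of IGFBP3 and IGFBP4 rose and that of IGFBP6 fell. After 12 h, 3 of the 7 genes tested passed the threshold of 0.001, against 27.6% of all 13777 genes, and after 24 h again 3 of 7, against 19.3%. The median log2 fold change over the 7 was 0.317 at 12 h and 0.231 at 24 h, and over all genes it was -0.00516 and -0.0104. At the looser threshold of 0.05, 5 of 7 passed at either time, against 57% of all genes at 12 h and 49.9% at 24 h. IGFBP1 and INSR were the members that passed 0.05 alone.

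IGFBP3, the main carrier of IGFs in serum, lies at chr7:45951844-45961473 (GRCh37, minus strand, 5 exons). Its level in the DMSO controls was 8.10 and 7.64 CPM, in the 12 h samples 49.8, 46.7 and 47.5 CPM, and in the 24 h samples 25.8, 24.0 and 25.0 CPM. The 3 groups did not overlap, with the 12 h group highest and the controls lowest. IGFBP3 rose 6.09-fold at 12 h (log2 fold change 2.61, SE 0.117, edgeR adjusted p = 2.52e-09) and 3.17-fold at 24 h (1.66, SE 0.118, adjusted p = 3.38e-07). Between 12 h and 24 h it fell by 0.94 on the log2 scale (SE 0.0894, edgeR adjusted p = 3.81e-05). It was the only one of the 7 to pass 0.001 in that comparison, against 1.41% of all genes.

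IGFBP4, a binding protein known mainly to restrain IGF action, lies at chr17:38599702-38613977 (GRCh37, plus strand, 4 exons). In PC-3 its controls had 56.7 and 41.1 CPM, the 12 h samples 177, 205 and 183 CPM, and the 24 h samples 140, 131 and 152 CPM. Every PDA-66 sample was above both controls, and the 12 h samples were above the 24 h samples. The rise was 3.85-fold at 12 h (log2 fold change 1.94, SE 0.139, edgeR adjusted p = 1.57e-07) and 2.89-fold at 24 h (1.53, SE 0.137, adjusted p = 2.52e-06). From 12 h to 24 h the log2 difference was -0.41 (edgeR adjusted p = 0.0356), short of 0.001 but under 0.05, as in 10.1% of all genes, and it passed 0.05 only with all of P12-1, P12-2, 12 h replicate 3, and 24 h replicates 1 and 2 in the fit (0.0731 to 0.17 without 1 of them).

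IGFBP6, which has a marked preference for IGF2, lies at chr12:53491220-53496129 (GRCh37, plus strand, 4 exons). It had 77.9 and 64.4 CPM in the PC-3 controls, 39.3, 41.5 and 39.7 CPM at 12 h and 34.7, 42.5 and 50.7 CPM at 24 h. Both controls were above every PDA-66 sample, while the 12 h and 24 h groups overlapped. IGFBP6 fell to 0.564 of the control level at 12 h (log2 fold change -0.83, SE 0.139, edgeR adjusted p = 0.000237) and to 0.598 at 24 h (-0.74, SE 0.139, adjusted p = 0.000736). Both calls lay near the threshold. Leaving out control 2, P12-1, P12-2 or 12 h replicate 3 ended the 12 h call (0.00105 to 0.00182), and leaving out control 2, any 12 h sample or 24 h replicate 1 or 2 ended the 24 h call (0.00146 to 0.00515).

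The remaining PC-3 binding proteins were scarce. IGFBP1 had 0.878 and 1.07 CPM in the controls, 1.82, 1.5 and 1.66 CPM at 12 h and 2.13, 1.77 and 1.89 CPM at 24 h, on 13 to 36 counts per sample. Its controls were below every PDA-66 sample, with log2 fold changes of 0.77 (SE 0.282, edgeR adjusted p = 0.0323) and 0.98 (adjusted p = 0.0101), which did not pass 0.001, and at 12 h not 0.05 without control 2, P12-1 or 12 h replicate 3. IGFBP2 had 1 count in all 8 PC-3 samples together, IGFBP5 had 1 to 4 counts per sample, and IGFBP7 was at 0 in 6 of them. IGFBP5 had 3 and 4 counts in the controls and 1 to 2 in the PDA-66 samples. The counts of these 3 genes were too low for the filter, and a change in them was not tested.

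Among the PC-3 receptors, INSR had 94.1 and 81.5 CPM in the controls, 64.3, 64.2 and 71.2 CPM at 12 h and 68.2, 64.0 and 69.3 CPM at 24 h. The controls lay above all PDA-66 samples. Its log2 fold changes of -0.40 (SE 0.101, edgeR adjusted p = 0.00427) and -0.39 (adjusted p = 0.00649) passed 0.05 but not 0.001. IGF1R had 8.17 and 6.17 CPM in the controls, 8.39, 9.99 and 8.47 CPM at 12 h and 10.4, 6.78 and 8.05 CPM at 24 h, with a 95% interval of the log2 fold change of -0.07 to 0.70 at 12 h and -0.15 to 0.62 at 24 h. Its 24 h samples overlapped the controls. IGF2R lay between 267 and 322 CPM in the 6 PDA-66 samples, inside the 204 to 351 CPM of its controls. Its log2 fold change was 0.15 at 12 h (95% interval -0.18 to 0.49) and 0.07 at 24 h (-0.26 to 0.40). Without control 2 it was 0.60 (edgeR adjusted p = 0.000322) and 0.52, and without control 3 it was -0.18 and -0.25, so 1 library set its direction.

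**Figure D3:**
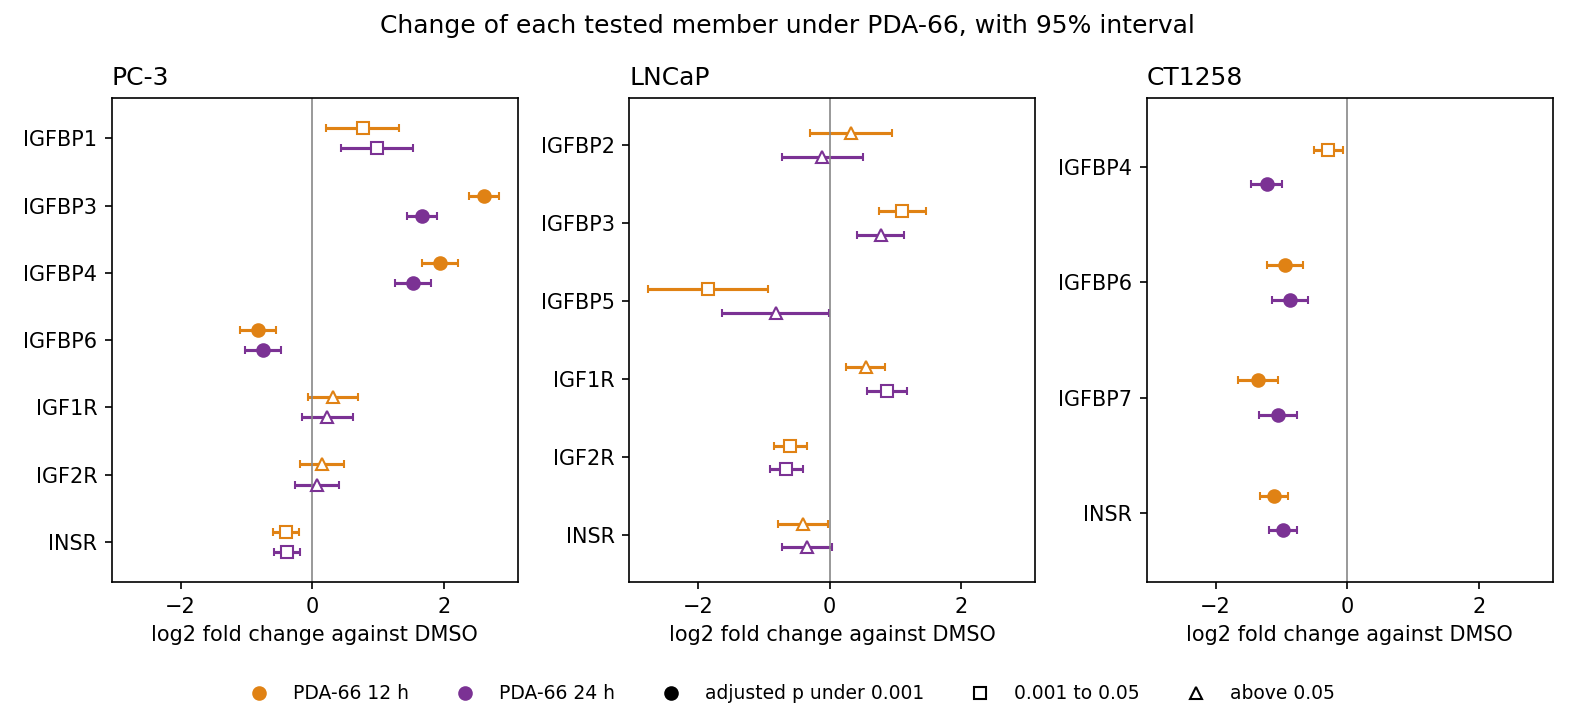
Log2 fold change of each tested gene against DMSO after 12 h and 24 h in the 3 cell lines, with 95% intervals; filled circles passed an adjusted p of 0.001, open squares 0.05 and open triangles neither. IGFBP4 lies at 1.94 and 1.53 in PC-3 and at -0.28 and -1.22 in CT1258, and INSR lies below 0 in all 3 lines.

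In LNCaP no member passed 0.001 at 12 h or 24 h in edgeR's quasi-likelihood test, where only 1 of 13156 genes passed at 12 h (0.0076%) and none at 24 h (0%). At an unadjusted p under 0.05, 3950 genes passed at 12 h and 2599 at 24 h. With the same counts, edgeR's likelihood ratio test called 571 and 258 genes and 1 member at each time, DESeq2 called 620 and 286 genes and 2 members at each time, and limma with sample quality weights called 1831 and 1473 genes and 3 and 2 members. Without 12 h replicate 2, the quasi-likelihood test called 261 and 105 genes. At 0.05, 3 of the 6 members tested passed at 12 h (9.14% of all genes) and 2 at 24 h (2.92%). The member medians of the log2 fold change were -0.0419 and -0.234, and those of all genes 0.0256 and -0.0109.

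IGFBP3 in LNCaP had 8.89, 6.58 and 6.41 CPM in the controls, 15.1, 14.4 and 17.5 CPM at 12 h and 12.3, 13.1 and 12.2 CPM at 24 h. The 3 groups did not overlap, in the same order as in PC-3. Its fold was 2.15 at 12 h (log2 fold change 1.10, SE 0.183, edgeR adjusted p = 0.0103), which passed 0.05, and 1.71 at 24 h (0.78, SE 0.183, adjusted p = 0.0564), which did not. The 24 h adjusted p was 0.00617 without 12 h replicate 2, and the 12 h value was 0.0523 without DMSO replicate 3. IGFBP5, a binding protein of the extracellular matrix, had 1.62, 0.741 and 0.849 CPM in the controls and 0.266, 0.412 and 0.215 CPM at 12 h. The log2 fold change was -1.85 (SE 0.465, edgeR adjusted p = 0.0387) at 12 h and -0.82 (adjusted p = 0.313) at 24 h, where the samples of 0.474, 0.820 and 0.536 CPM overlapped the controls. It rested on 3 to 23 counts per sample, and the 12 h value stayed under 0.05 in 1 of 9 fits that left out 1 sample.

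Among the LNCaP receptors, IGF1R was higher and IGF2R lower at an adjusted p of 0.05 after 24 h. IGF1R, at chr15:99191768-99507759 (GRCh37, plus strand), had 81.8, 67.1 and 68.1 CPM in the controls, 113, 91.2 and 112 CPM at 12 h and 134, 135 and 129 CPM at 24 h. Every PDA-66 sample was above every control. The log2 fold change was 0.54 (SE 0.153, edgeR adjusted p = 0.054) at 12 h and 0.87 (1.83-fold, SE 0.153, adjusted p = 0.0278) at 24 h. The 24 h value stayed under 0.05 in 4 of 9 fits that left out 1 sample, and was 0.00066 without 12 h replicate 2.

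IGF2R, at chr6:160390114-160534539 (GRCh37, plus strand), had 465, 496 and 562 CPM in the LNCaP controls, 336, 342 and 329 CPM at 12 h and 325, 329 and 310 CPM at 24 h. Every control lay above every PDA-66 sample. The log2 fold change was -0.60 (SE 0.128, edgeR adjusted p = 0.0235) at 12 h and -0.66 (SE 0.128, adjusted p = 0.0343) at 24 h, each under 0.05 in 3 of 9 fits that left out 1 sample. INSR had 36.4, 53.7 and 42.8 CPM in the controls, 29.2, 40.2 and 30.9 CPM at 12 h and 34.1, 36.6 and 33.4 CPM at 24 h. These groups overlapped, and the log2 fold changes of -0.41 (edgeR adjusted p = 0.189) and -0.35 (adjusted p = 0.359) passed neither threshold. Without 12 h replicate 2, the sample that stood apart, INSR at 12 h was at -0.55 (edgeR adjusted p = 0.0224).

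IGFBP2 was the most abundant binding protein of LNCaP and varied widely. It had 150, 89.8 and 112 CPM in the controls, 95.5, 229 and 115 CPM at 12 h and 109, 102 and 113 CPM at 24 h. The highest value, 229 CPM, belonged to 12 h replicate 2, the sample that stood apart. The log2 fold change of 0.32 at 12 h (95% interval -0.29 to 0.94, edgeR adjusted p = 0.515) turned to -0.15 without that sample. At 24 h it was -0.12 (edgeR adjusted p = 0.892).

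**Figure D4:**
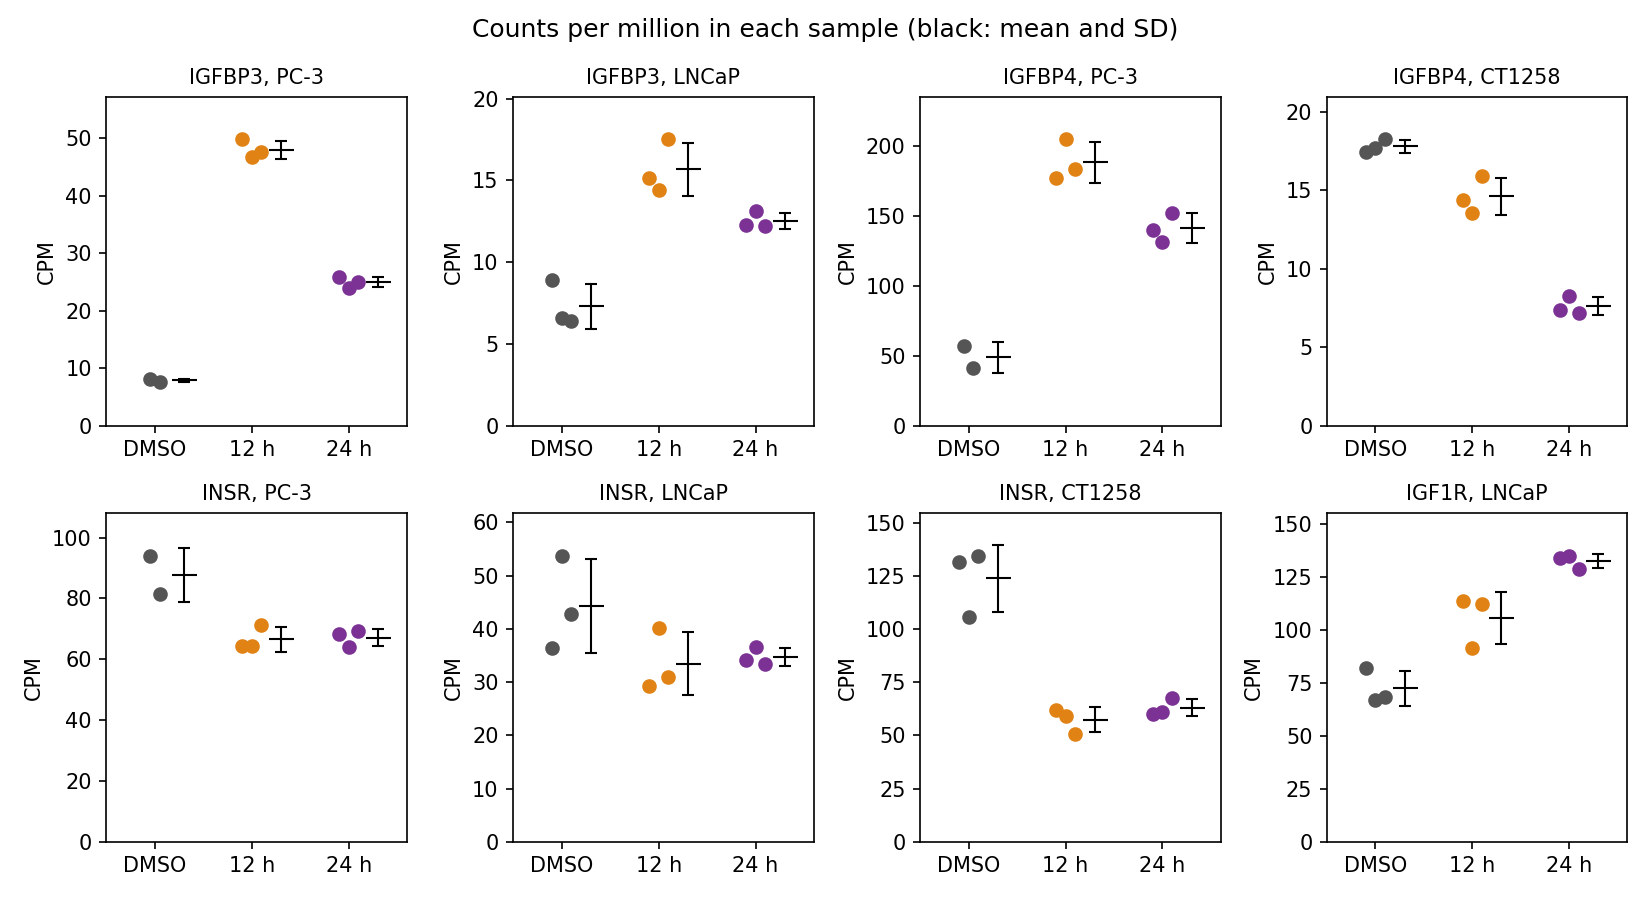
CPM of each sample on a linear axis for IGFBP3 in PC-3 and LNCaP, IGFBP4 in PC-3 and CT1258, INSR in all 3 lines and IGF1R in LNCaP, by group, with the mean and SD in black. The PC-3 panels show IGFBP3 at 46.7 to 49.8 CPM after 12 h and 24.0 to 25.8 CPM after 24 h, and the CT1258 panel shows IGFBP4 at 7.19 to 8.26 CPM after 24 h, below all other samples.

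In CT1258 the 4 members that passed the filter on low counts were IGFBP4, IGFBP6, IGFBP7 and INSR, and all had lower levels with PDA-66. At 12 h 3 of the 4 passed 0.001 as lower, against 22.1% of the 9886 genes tested, and at 24 h all 4 passed, against 17.2%. In either direction the shares of all genes were 44.3% and 33.8%. The member medians of the log2 fold change were -1.03 at 12 h and -1.01 at 24 h, with -0.00246 and -0.00683 over all genes. The control libraries of this line were all deeper than those with PDA-66. The calls at 0.001 were kept when the controls were thinned to the depth of the others, which evens out the depth of counting alone. A difference in library preparation or sequencing that goes with depth cannot be told apart from PDA-66 in this line.

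IGFBP4 in CT1258 had 17.4, 17.7 and 18.2 CPM in the controls, 14.4, 13.6 and 15.9 CPM at 12 h and 7.36, 8.26 and 7.19 CPM at 24 h. The groups did not overlap and the 24 h samples were lowest. The log2 fold change was -0.28 (SE 0.113, edgeR adjusted p = 0.0363) at 12 h, a time at which 69.8% of all genes passed 0.05, and -1.22 (0.428 of the control level, SE 0.123, adjusted p = 2.15e-06) at 24 h. The 12 h value was above 0.05 with thinned controls (log2 fold change -0.21, edgeR adjusted p = 0.161) and without DMSO replicate 1 or 3 or 12 h replicate 1 or 2 (0.0554 to 0.148). From 12 h to 24 h it fell by 0.94 on the log2 scale (SE 0.133, edgeR adjusted p = 0.000415), the only one of 4 members past 0.001 against 2.13% of all genes. Leaving out any of the 6 PDA-66 samples took that last call past 0.001 (0.00213 to 0.00399), with log2 differences of -1.0 to -0.88.

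IGFBP6 in CT1258 had 107, 154 and 104 CPM in the controls, 59.3, 66.1 and 64.6 CPM at 12 h and 75.1, 60.3 and 64.0 CPM at 24 h. The controls were above all PDA-66 samples and the 2 times overlapped. It fell to 0.520 of the control level at 12 h (log2 fold change -0.94, SE 0.139, edgeR adjusted p = 3.73e-05) and to 0.547 at 24 h (-0.87, SE 0.139, adjusted p = 0.000104), where the call was lost without 24 h replicate 2 (0.00122) or 3 (0.001). IGFBP7, a matrix protein of low IGF affinity, had 14.7, 17.9 and 14.8 CPM in the controls, 5.99, 6.36 and 6.15 CPM at 12 h and 9.08, 6.43 and 7.32 CPM at 24 h. Again no PDA-66 sample reached the controls. IGFBP7 fell to 0.391 at 12 h (log2 fold change -1.35, SE 0.154, edgeR adjusted p = 3.43e-06) and to 0.483 at 24 h (-1.05, SE 0.149, adjusted p = 4.06e-05).

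INSR in CT1258 had 131, 106 and 134 CPM in the controls, 62.1, 59.1 and 50.8 CPM at 12 h and 60.1, 61.2 and 67.7 CPM at 24 h. Both PDA-66 groups were clear of the controls. It fell to 0.463 of the control level at 12 h (log2 fold change -1.11, SE 0.110, edgeR adjusted p = 1.01e-06) and to 0.509 at 24 h (-0.98, SE 0.110, adjusted p = 5.43e-06). The canine rows of IGFBP2, IGFBP3 and IGFBP5 were at 0 in all 9 samples, below a floor of 0.0279 CPM for 3 counts over all of them, and IGFBP1 had 2 counts in control 1 alone. Of all 16028 canine rows, 3206 were at 0 in all CT1258 samples. Of 2303 genes with at least 50 CPM in every human sample and a canine row, 30 (1.3%) were at 0 in all CT1258 samples. IGFBP2, IGFBP3 and IGFBP5 were not among those 2303, since each had human samples below 50 CPM. Whether the gene models behind the rows at 0 have a part in this was not tested.

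Groups that did not overlap were common among all genes. In PC-3, 6 of 7 members at 12 h and 5 of 7 at 24 h had controls that did not overlap the PDA-66 samples, against 70.9% and 61.9% of all genes. In LNCaP the members were 4 and 3 of 6, against 28.1% and 44.7%, and in CT1258 4 of 4 at both times, against 72.8% and 66.3%.

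The responses of the lines were compared directly as differences of log2 fold changes at an adjusted p of 0.05. IGFBP3 rose more in PC-3 than in LNCaP, by 1.56 at 12 h (SE 0.221, edgeR adjusted p = 0.000322) and by 0.92 at 24 h (adjusted p = 0.0205). The 24 h call was lost without PC-3 control 3 (0.0893) or without PC-3 24 h replicate 1, LNCaP 24 h replicate 1 or LNCaP 24 h replicate 3 (0.0504 to 0.0546). At 12 h 2 of the 4 members tested in both human lines differed, against 13.7% of 15018 genes, and at 24 h 1 of 4, against 5.99%. The second at 12 h was IGF2R with 0.80 (SE 0.236, edgeR adjusted p = 0.0334), which was at 0.46 (0.161) without PC-3 control 3 and above 0.05 (0.0534 to 0.0759) without P12-2, PC-3 12 h replicate 3 or LNCaP DMSO replicate 2 or 3. IGF2R at 24 h was at 0.77 (edgeR adjusted p = 0.0673). For IGF1R the difference was -0.18 at 12 h (95% interval -0.68 to 0.33) and -0.61 at 24 h (-1.11 to -0.10, edgeR adjusted p = 0.19). For INSR it was 0.06 (-0.38 to 0.51) and 0.00 (-0.34 to 0.34), so that a difference of either sign up to these bounds remains possible.

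IGFBP4 was the clearest contrast between PC-3 and CT1258, with higher levels in PC-3 and lower levels in CT1258 after PDA-66. The response in CT1258 was below that in PC-3 at 12 h (log2 difference -2.21, SE 0.259, edgeR adjusted p = 9.63e-07) and at 24 h (-2.75, SE 0.267, adjusted p = 1.69e-07). Both passed in all 21 alternatives. Of the 3 members tested in both lines, 2 differed at 12 h (30.1% of 11736 genes) and 2 at 24 h (21.2%). The other was INSR, which fell more in CT1258, by -0.70 (SE 0.206, edgeR adjusted p = 0.0126) at 12 h and -0.58 (adjusted p = 0.0466) at 24 h. Its 12 h call was lost without PC-3 control 3 (0.0619) and its 24 h call in 10 of 21 alternatives (up to 0.159). IGFBP6 fell in both lines, with a difference of -0.10 at 12 h (95% interval -0.64 to 0.44) and -0.12 at 24 h (-0.66 to 0.41). Only INSR could be compared between CT1258 and LNCaP. It fell more in CT1258, by -0.65 (SE 0.196, edgeR adjusted p = 0.0105; 40.2% of genes differed) at 12 h and by -0.59 (adjusted p = 0.0328; 21.1%) at 24 h. The 24 h call was lost without LNCaP DMSO replicate 3, CT1258 DMSO replicate 1 or 3 or CT1258 24 h replicate 1 or 2, and with DESeq2 size factors (0.0508 to 0.0791).

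INSR was the sole member tested in all 3 lines. Over all 26 samples and 8264 genes, the log2 CPM patterns most like it after centring within each line were those of KDM6B (Pearson r 0.936), RNF44 (0.911) and MEF2D (0.899). The samples share lines, treatments and libraries, and these values are descriptions.

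Other genes of the pathway were taken from 7 lists of 62 genes. Of the ligands and their carriers, IGF2 and INS were at 0 in all PC-3 and LNCaP samples, and IGF1 reached 2.3 to 6.25 CPM in LNCaP and at most 0.268 CPM in PC-3. In CT1258 only 1 of these 4 genes was listed under its symbol. It was IGFALS, the acid-labile subunit that joins IGFBP3 complexes in serum, with 1.84 to 3.20 CPM. Rows named IGF1, IGF2 and INS were not found there, and a canine row named IGF1_CANFA was at 0 in all 9 samples. Over all lists, PC-3 had 53 genes tested, of which 5 rose and 8 fell at 12 h and 3 rose and 6 fell at 24 h, 24.5% and 17% (all genes 27.6% and 19.3%). CT1258 had 44 tested, of which 12 rose and 7 fell at 12 h and 5 rose and 9 fell at 24 h, 43.2% and 31.8% (all genes 44.3% and 33.8%). LNCaP had 47 tested and none passed 0.001, while at 0.05 0 were higher and 7 lower at 12 h (14.9% against 9.14% of all genes), and 0 and 1 at 24 h (2.13% against 2.92%).

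Among proteases that cut binding proteins and their inhibitors, PC-3 had 4 genes tested and 2 passed at 12 h, both lower, and 1 at 24 h. HTRA1, a serine protease known to cut binding proteins, had log2 fold changes of -0.49 (edgeR adjusted p = 0.000575) and -0.33 (adjusted p = 0.00985) in PC-3 and of -0.59 (0.000258) and -0.39 (0.00639) in CT1258. STC2 and STC1 are secreted inhibitors of the pappalysins, the metalloproteases that cut IGFBP4. STC2 fell in PC-3 (-0.96 and -0.87, edgeR adjusted p = 2.88e-06 and 1.25e-05), and STC1 rose in CT1258 (1.75, edgeR adjusted p = 4.26e-08 at 12 h). In CT1258 2 genes of this list were tested, with 1 higher and 1 lower at 12 h and 1 higher at 24 h. In LNCaP 3 were tested and 1 was lower at 0.05 at 12 h, HTRA1 (-1.13, edgeR adjusted p = 0.0217).

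Of the IGFBP-related proteins, which share a domain with the binding proteins, 5 were tested in PC-3. At 12 h 1 rose and 1 fell, ESM1 (1.33, edgeR adjusted p = 0.000129) and WISP1 (-5.05, adjusted p = 4.61e-08), and at 24 h ESM1 rose (1.85) while WISP1 (-2.66) and NOV (-0.54, adjusted p = 0.000254) fell. ESM1, an endothelial proteoglycan, also rose in CT1258 (2.06, edgeR adjusted p = 5.49e-09 at 12 h), where CYR61 fell at 24 h (-0.98, adjusted p = 4.39e-06). In LNCaP 2 were tested and NOV was lower at 0.05 at 12 h (-1.13, edgeR adjusted p = 0.0369).

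Among receptor adaptors and negative regulators, GRB10, an adaptor that damps INSR and IGF1R signalling, had negative log2 fold changes in every line, past 0.001 in PC-3 at 12 h and in CT1258 at 24 h. In LNCaP its mean went from 358 CPM to 117 CPM at 12 h and 126 CPM at 24 h (log2 fold changes -1.61 and -1.51, edgeR adjusted p = 0.00369 and 0.00522). In PC-3 it was at -0.50 (edgeR adjusted p = 0.000775) and -0.46 (0.00186), and in CT1258 at -0.70 (0.0064) and -0.99 (0.000896). Of 11 genes tested in this list in PC-3, 1 fell at 12 h and 0 passed at 24 h. Of 9 in CT1258, 3 rose and 1 fell at 12 h, and 1 rose and 2 fell at 24 h, among them the adaptors GAB1, which rose at 12 h (0.79, edgeR adjusted p = 4.21e-05), and SHC1, which fell at both times (-0.90 and -0.95, adjusted p = 7.83e-07 and 9.56e-07). Of 11 in LNCaP, 3 were lower at 0.05 at 12 h and 1 at 24 h, and those at 12 h included the docking proteins IRS2 (-1.11, edgeR adjusted p = 0.0163) and IRS1 (-1.09, adjusted p = 0.0311).

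In the PI3K-AKT-mTOR list, the main kinase route below both receptor kinases, 23 genes were tested in PC-3, of which 2 rose and 2 fell at 12 h and 1 rose and 1 fell at 24 h. AKT1 rose (0.93 and 0.82, edgeR adjusted p = 6.99e-06 and 3.33e-05) at both times. In CT1258 21 were tested, of which 5 rose and 3 fell at 12 h and 1 rose and 5 fell at 24 h. EIF4EBP1, a translation repressor, fell (-1.90 at 12 h, edgeR adjusted p = 3.77e-08) and the kinase subunit PIK3CB rose (1.86, adjusted p = 1.11e-06). In LNCaP 22 were tested, and PIK3R1 (-1.0, edgeR adjusted p = 0.0369) and MTOR (-0.79, adjusted p = 0.0436) were the 2 lower at 0.05 at 12 h.

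The mannose 6-phosphate sorting list holds the partners of IGF2R in lysosomal sorting, and 7 genes were tested in each line. In PC-3 1 rose and 1 fell at both times: GNPTAB (1.01 and 0.91, edgeR adjusted p = 1.6e-05 and 6.03e-05) and GNPTG (-1.41 and -1.40, adjusted p = 5.62e-07 and 1.41e-06), which encode subunits of the same enzyme that makes the mannose 6-phosphate tag. In CT1258 1 rose and 2 fell at 12 h and 1 rose and 1 fell at 24 h. There GGA1, a clathrin adaptor that binds the tail of IGF2R, fell (-1.29 and -1.14, edgeR adjusted p = 5.16e-07 and 2.68e-06), GNPTG fell at 12 h (-0.57, adjusted p = 0.000323) and GNPTAB rose at 24 h (0.65, adjusted p = 0.000989). None passed in LNCaP, at 0.05 either. Of the IGF mRNA-binding proteins, IGF2BP1 fell (-3.96 and -1.77, edgeR adjusted p = 6.93e-07 and 0.000161) and IGF2BP2 rose at 12 h (0.53, adjusted p = 0.000543) in PC-3, and 1 of 2 tested rose in CT1258 at 12 h and 0 at 24 h.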

How the data were processed

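Poly(A)-selected RNA was sequenced as single reads. Per the study's methods and processing notes, the authors mapped human reads to HG19 with STAR 2.3.1s and canine reads to CanFam3.1 with BWA, and deposited 3 tables of raw read counts per gene, without normalization. In the PC-3 table the deposited values of the last column carry trailing separators (recorded as other, not plain counts), which were removed. From the labels it is uncertain which replicate is which for 2 PC-3 samples of 12 h, named P12-1 and P12-2 after their columns. Whether counting used the strand is not given in the sources used here.

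Genes were matched by symbol, passed through filterByExpr, scaled by TMM and compared with the quasi-likelihood F test of edgeR 4.0.16 (R 4.3.3, limma 3.58.1), 1 fit per cell line over its 3 groups, with Benjamini-Hochberg adjustment over all genes tested and thresholds of 0.001 and 0.05. Responses were compared between lines as an interaction over genes shared by symbol, at 0.05. CPM used TMM-scaled library sizes, and lengths came from GENCODE canonical transcripts on GRCh37. DESeq2 1.42.0, edgeR's likelihood ratio test, limma voom with sample quality weights, other scalings and filters, thinned controls, a replicate block and fits without each sample were alternatives. Scripts were tested on simulated data. All 10 members were named, and up to 3 genes per list that passed the threshold in a line, by size of change, of which 2 are not reported here. The members, lists and tests were chosen with earlier results of these data known. Figures were drawn with Python 3.11.15 and matplotlib 3.10.9.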

Additional observations from a re-analysis of the deposited data

Results flagged for a closer look

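Of the results compared between cell lines, 9 differed in response by the interaction test of edgeR at an adjusted p of 0.05, each with 2 or 3 samples per group. Between PC-3 and LNCaP, the log2 fold change of IGFBP3 was larger in PC-3 by 1.56 at 12 h and by 0.92 at 24 h, and that of IGF2R was larger by 0.80 at 12 h. For IGF2R the PC-3 controls had 204 and 351 CPM, and the difference was 0.46 without control 3. Between CT1258 and PC-3, the difference for IGFBP4 was -2.21 at 12 h and -2.75 at 24 h, with PDA-66 samples above the controls in PC-3 and below them in CT1258, and that for INSR was -0.70 and -0.58. Between CT1258 and LNCaP, the difference for INSR was -0.65 at 12 h and -0.59 at 24 h. The 24 h differences of INSR were not called in 10 of 21 alternatives against PC-3 and in 6 of 22 against LNCaP, and that of IGFBP3 was not called when any of 4 single samples was left out. Groups of 3 or fewer samples are too small for the check on single outlying samples.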

How the results depend on the processing

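The 32 called member results were recomputed 641 times under other settings, of which 561 kept direction and call, 80 lost the call and 0 changed sign. Of 573 recomputations of 30 results that were not called, 29 passed the threshold and 23 changed sign. These totals include 2 settings that reuse the same p-values within a line. A threshold of 0.05 can only add calls to those at 0.001, and a minimum absolute log2 fold change of 1 can only remove them. With an adjusted p of 0.05 in place of 0.001, 5 PC-3 members passed at 12 h, 5 at 24 h and 2 between 24 h and 12 h, and in LNCaP 3 and 2. LNCaP gave 1 and 1 with the likelihood ratio test, 2 and 2 with DESeq2 and 3 and 2 with limma voom, which also called 2 members in PC-3 between 24 h and 12 h. A minimum absolute log2 fold change of 1 left 0 members between 24 h and 12 h in PC-3 and CT1258 and 2 in CT1258 at 24 h. Leaving out 1 sample gave 0 to 1 members in LNCaP at 24 h and 0 to 1 in CT1258 between 24 h and 12 h.

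For responses of PC-3 against LNCaP, scaling by library size alone and limma voom each gave 2 members at 24 h, no filter gave 1 at 12 h, and leaving out 1 sample gave 1 to 2 at 12 h and 0 to 2 at 24 h. With DESeq2 size factors 1 member differed between CT1258 and PC-3 and 0 between CT1258 and LNCaP at 24 h. Leaving out 1 sample gave 1 to 2 at 12 h and 1 to 2 at 24 h for the former and 0 to 1 at 24 h for the latter. The causes were not tested.

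Uncalled values that changed sign without 1 sample were IGF2R in PC-3 (-0.18 to 0.60 at 12 h, -0.25 to 0.52 at 24 h), IGFBP2 in LNCaP (-0.15 to 0.55 and -0.27 to 0.10), the response difference of INSR (-0.095 to 0.20 and -0.16 to 0.12) and, at 12 h, IGF1R (-0.37 to 0.046) between PC-3 and LNCaP, and that of IGFBP6 between CT1258 and PC-3 (-0.22 to 0.12 and -0.30 to 0.091). The INSR difference at 24 h was -0.0023 with DESeq2 size factors, -0.019 with no filter and -0.013 with limma voom, and the IGFBP6 differences were 0.081 and 0.047 with limma voom.

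Deviations from the group mean were correlated between samples. Those of the same replicate number gave -0.149 to 0.147 in PC-3, -0.477 to 0.262 in LNCaP and -0.253 to 0.186 in CT1258. Samples of different numbers gave up to 0.149, 0.515 and 0.265. Deviations cancel within a group, so the PC-3 controls gave mirrored values against the same 24 h sample (0.149 and -0.149). These correlations therefore cannot decide whether samples of the same number were paired. With a replicate block, IGFBP6 in PC-3 at 24 h had an edgeR adjusted p of 0.0209, and 0 members instead of 1 passed in CT1258 between 24 h and 12 h (IGFBP4, 0.00127). Of the calls at 0.05, the block ended those of IGFBP5 (0.0934) and IGF2R (0.087) at 12 h and IGF1R (0.0879) and IGF2R (0.119) at 24 h in LNCaP, of IGFBP1 (0.118) and INSR (0.154) at 24 h in PC-3 and of IGFBP4 (0.0576) at 12 h in CT1258, and it kept that of IGFBP3 at 12 h in LNCaP (0.042). The block called 1554 genes in place of 2665 in PC-3 at 24 h, 132 in place of 211 in CT1258 between 24 h and 12 h, and 0 in place of 1 in LNCaP at 12 h.

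Over all genes, PC-3 at 24 h gave 4218 calls with the likelihood ratio test and 1664 with only the groups compared, and CT1258 at 24 h gave 5425 with limma voom. Between 24 h and 12 h, PC-3 gave 696, 514, 2320 and 479 with the likelihood ratio test, DESeq2, limma voom and only the groups compared, and CT1258 gave 730, 662, 2073 and 1172, and 345 with no filter. Leaving out 1 sample gave 59 (P12-2) to 500 (control 2) in PC-3 and 20 (12 h replicate 1) to 1352 (control 2) in CT1258 between the times, 1551 (24 h replicate 2) to 3435 (control 2) in PC-3 and 2116 (24 h replicate 3) to 4629 (control 2) in CT1258 at 24 h, and for the response of PC-3 against LNCaP 991 (PC-3 control 3) to 3647 (LNCaP 12 h replicate 2) at 12 h and 421 to 3132 (the same samples) at 24 h. Limma voom gave 2936 to 6438 calls in the comparisons of responses at both times.

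IGFBP1 and IGFBP5 rest on few counts, and the controls of PC-3 number 2, which limits every PC-3 value.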
